A study of Mus musculus with 54 samples.

Results

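The Sox2 locus was followed through every peak list of a chromatin immunoprecipitation sequencing (ChIP-seq) series on CTCF and the cohesin subunits Rad21 and Smc3. All peaks with a summit on mouse chromosome 3 between 34.5 and 34.9 Mb (build mm10) were taken, a window that holds Sox2, the 3′ part of the overlapping long noncoding RNA gene Sox2ot and the downstream Sox2 control region (SCR). They numbered 201 of 781274 peaks and fell into 23 of 75882 sites when overlapping peaks were merged. CTCF peaks made up 19 of these sites, Smc3 peaks 11 and Rad21 peaks 3, and a site could hold peaks of several antibodies.

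Mouse E14 cells were used, either as embryonic stem cells (ESCs) or after 2 days of differentiation as neural progenitor cells (NPCs). In the rescue lines, both copies of the endogenous CTCF gene carry a degron with eGFP, OsTir1(F74G) sits at Rosa26, and a doxycycline-inducible Flag-Halo CTCF at the Tigre locus is either wild type (WT) or lacks the first, RNA-binding zinc finger (ΔZF1). All rescue groups, WT included, were treated for 24 hours with 1 µM 5-Ph-IAA to deplete the endogenous protein and 1 µg/ml doxycycline to induce the rescue protein, so the WT group is not an untreated control. CTCF was measured in 4 libraries of each of the rescue groups (ESC WT, ESC ΔZF1, NPC WT, NPC ΔZF1) and Rad21 and Smc3 in 2 libraries of each. Parental E14 NPCs and NPCs of the lines PodxlpA and Grb10pA, in which an inserted polyadenylation signal truncates the Podxl or Grb10 RNA, were measured in 2 libraries each for CTCF and Smc3 and have no such treatment in the labels. They are called the non-rescue lines below. That makes 22 CTCF, 14 Smc3 and 8 Rad21 lists. Peak lists measure no RNA, so the labelled cell types could not be checked against marker genes, and Sox2 or Sox2ot expression is not measured here.

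Sox2 encodes a transcription factor of the SOX family that keeps ESCs pluripotent together with Oct4 and Nanog and is also expressed in neural progenitors. It is a gene without introns that lies inside an intron of Sox2ot and is transcribed in the same direction. In ESCs its expression depends on the SCR, an enhancer cluster far downstream, while the regions SRR1 and SRR2 next to the gene are known as nearby regulatory regions. CTCF binds an asymmetric DNA motif and halts cohesin, the ring complex that extrudes chromatin loops, and the relative orientation of CTCF motifs influences which pairs of sites are joined.

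In GENCODE M21, Sox2 occupies chr3:34650405-34652461 on the plus strand and Sox2ot chr3:34104270-34682619, also on the plus strand. Distances are given from this Sox2 start. RefSeq places the start 410 bp further upstream. Sox2ot contains 12 of the 23 sites, 10 of them with CTCF peaks. The 8 sites described one by one below were called in every library of at least 1 group, or in at least 50% of the libraries of an antibody.

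The CTCF motif was searched on both strands within 50 bp of the strongest CTCF summit of each site, with up to 2 mismatches to the 14-base core consensus. The best match is shown for each of the 5 sites described one by one that held both CTCF and Smc3 peaks, because its strand gives the direction in which the motif points. The capitals mark the motif core, the sequence is read 5′ to 3′ on the motif strand, and the bases come from the reference genome.
-49 kb site, chr3:34601293-34601322, plus strand: cacagaggCCAGAAGAGGGCAGtggttccc
-11 kb site, chr3:34639396-34639425, minus strand: ccgatttgTCATTAGAGGGCGCcagagagt
-9.5 kb site, chr3:34640888-34640917, minus strand: cactgcgtCCAATAGGGGGCGCtggcgtga
-2.5 kb site, chr3:34647879-34647908, plus strand: caagtccaCCAGCAGGGGGCGCagcagcca
+110 kb site in the SCR, chr3:34760094-34760123, minus strand: actagccgCCAGCAGGAGGCGGtgtggcaa

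The match at the -2.5 kb site, in the SRR1 region, had 0 mismatches. Those at -49 kb, -9.5 kb and +110 kb had 1 mismatch each, and the one at -11 kb had 2. In the reading direction of the consensus, the motif next to the Sox2 start points toward the SCR, and the SCR motif points back toward Sox2. The motifs at -11 kb and -9.5 kb lie on the same strand as the SCR motif. The +16 kb site had a match with 2 mismatches on the plus strand, whereas the best match at -74 kb had 3 mismatches and does not count as a motif under this rule. In all, 10 of the 19 CTCF sites of the window held a motif, beside 61.3% of the 68058 CTCF sites of the series, 82.5% of the 1883 called in all 22 libraries, and 2.94% of windows placed 1000 bp to either side. A match is a description of the sequence and shows no binding.

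Depth and list length differed widely and are given here since a site missing from a short list need not be unbound. The CTCF rescue lists held 5755 to 45941 peaks and 2 to 15 peaks of the window. The E14, PodxlpA and Grb10pA CTCF lists held 15505 to 28805 peaks and 5 to 7 of the window. Smc3 lists held 8169 to 34104 peaks in the rescue lines and 10005 to 15626 in the other lines, and Rad21 lists only 1306 to 10415. Coverage recovered from the CTCF rescue lists was 1.14 to 2.39 fragments per bp for replicates 1 and 4, but 0.392 to 0.905 for replicates 2 and 3. The peak names inside all 4 CTCF rescue lists of replicate 4 carry the replicate number 2, so some of the results below are also given without these lists.

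The percentile used below is the share of a library's own peaks whose fold enrichment over local background was at or below that of the site. A site without a peak in a library is called uncalled and was set to 0 in tests.

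**Figure D1:**
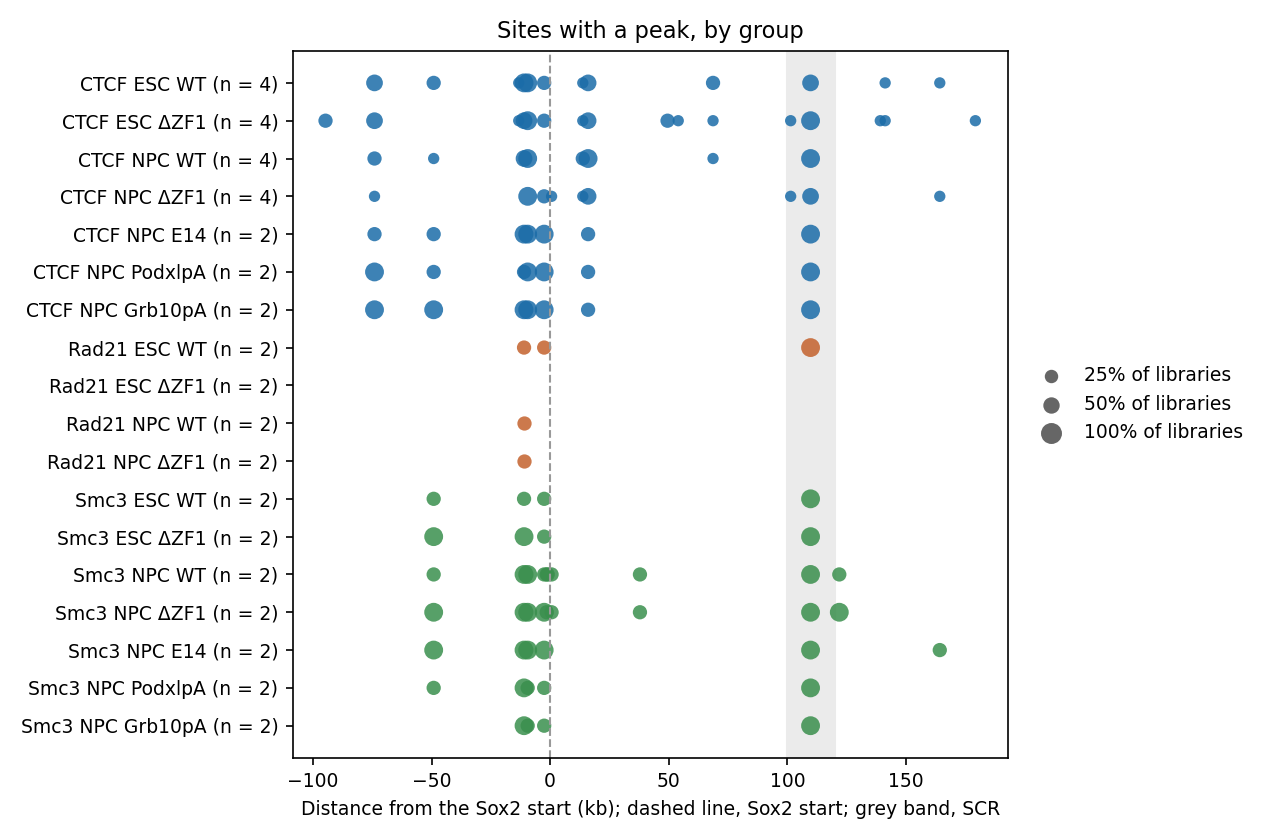
Sites with a peak in each of the 18 groups (rows, coloured by antibody), plotted by distance from the Sox2 start in kb. Larger points mean a larger share of the group's libraries. CTCF and Smc3 points align near -11 to -2.5 kb and at +110 kb, and the CTCF points at -74 and +16 kb have no Smc3 or Rad21 counterpart.

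The most constant CTCF site of the locus lay at -9.5 kb, in an intron of Sox2ot (chr3:34640650-34641294). It was called in all 22 CTCF libraries, as were 2.77% of the CTCF sites of the series, and it was the only such site of the 19. Its percentiles in ESC WT were 96.9, 90.8, 95.5 and 64.7 in replicates 1 to 4, and in ESC ΔZF1 97.7, 86.7, 95.9 and 90.4. In NPC WT they were 97.3, 85.6, 93.1 and 73.1, and in NPC ΔZF1 95.7, 84.9, 59.6 and 96.7. The groups overlapped throughout, and the lowest values were those of NPC ΔZF1 replicate 3 and ESC WT replicate 4, which had the shortest list of their groups. In the 6 E14, PodxlpA and Grb10pA libraries the percentile ran from 86.0 to 96.7, with a median of 95.2.

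Fold enrichment at the -9.5 kb site ran from 7.7 in ESC WT replicate 4 to 40.3 in ESC WT replicate 1. It was the only site of the window called in all 8 libraries of each comparison and therefore the only one that entered limma, which was fitted across all such CTCF sites on normal scores of the fold rank. The ΔZF1 minus WT effect was 0.31 SD units (SE 0.30) in ESCs and 0.45 (SE 0.35) in NPCs, with adjusted p = 0.838 and 0.770. The NPC minus ESC effect was -0.07 (SE 0.33) in WT and 0.10 (SE 0.32) in ΔZF1 cells, with adjusted p = 0.942 and 0.993. With 1 library left out, the ΔZF1 effect ran from 0.07 to 0.45 in ESCs, lowest without ESC WT replicate 4, and from 0.19 to 0.70 in NPCs, lowest without NPC ΔZF1 replicate 1, and none passed. Differences of the mean percentile at this site were 5.69 points in ESCs and -3.06 in NPCs for ΔZF1 minus WT (n = 4 each, exact permutation p = 0.686 and 0.771), and 0.31 in WT and -8.44 in ΔZF1 for NPC minus ESC (exact permutation p = 0.971 and 0.429). Apart from the ESC comparison, these have the opposite sign to limma. Across the genome limma called 0.0386% of 5187 sites for ΔZF1 against WT in ESCs, 0% of 2366 in NPCs, 0.251% of 5982 for NPC against ESC in WT cells and 0% of 2284 in ΔZF1 cells. In the comparisons with 0 calls, 178 and 120 sites had an unadjusted p under 0.05, and other settings of limma gave 0 to 2 calls. With the replicate number as a block the WT cell type comparison called 2.67% of sites, again without the -9.5 kb site.

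The Smc3 calls at the same -9.5 kb site differed between the cell types. Smc3 had no peak there in the 4 ESC rescue libraries and had one in all 4 NPC rescue libraries. The NPC percentiles were 69.9 and 45.7 in WT and 71.8 and 73.2 in ΔZF1, at folds of 12.6, 6.5, 11.3 and 9.4. Both E14 libraries (78.4 and 54.1), PodxlpA replicate 2 (55.5) and Grb10pA replicate 1 (89.3) also had the peak, so that 8 of the 10 NPC lists held it. Of all Smc3 sites in the rescue libraries, 1.95% had a peak in the 4 NPC lists and no ESC list, against 0.0141% the other way round. Among the Smc3 sites called in all 4 NPC rescue lists, 6.85% had no call in an ESC rescue list. With the cell types exchanged this share was 0.0926%. Of the 1883 sites bound by CTCF in all 22 libraries, 8.87% had no Smc3 peak in any ESC library, and 0.478% also had one in at least 8 of 10 NPC libraries, a limit chosen after the site's values were seen. The NPC Smc3 lists of the rescue lines held 13710 to 34104 peaks and the ESC lists 8169 to 18023, and the part of list length in this difference was not tested. No Rad21 library had a peak at the site.

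The neighbouring -11 kb site (chr3:34639142-34639889, also in a Sox2ot intron) carried all 3 proteins. CTCF was called in all 4 ESC WT libraries (percentiles 78.5, 83.9, 79.0 and 54.5) and in 3 of 4 ESC ΔZF1 libraries (86.3, 53.5 and 20.2). In NPCs it was called in 3 of 4 WT libraries (83.0, 69.6 and 87.6) and in none of the 4 ΔZF1 libraries. The non-rescue lines had it in 5 of 6 lists, at 63.5 to 82.7. The NPC WT and ESC ΔZF1 lists that lacked it were both replicate 4.

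The mean percentile at -11 kb was 60.04 ± 40.7 in NPC WT and 0 in NPC ΔZF1 (SD, n = 4 each, exact permutation p = 0.143, two-sided). In ESCs it was 74.0 ± 13.2 in WT and 39.98 ± 37.9 in ΔZF1 (SD, n = 4 each, exact permutation p = 0.229). Without the lists of replicate 4 the ΔZF1 minus WT difference was -80.05 points in NPCs and -27.2 in ESCs (exact permutation p = 0.1, the smallest that 3 against 3 allow, and 0.4). The ΔZF1 effect did not differ detectably between cell types (difference -26.0 percentile points, exact permutation p = 0.463). A pattern of at least 3 of 4 NPC WT and no NPC ΔZF1 libraries, a limit set after seeing the site, was met by 2.81% of CTCF sites, and the opposite by 0.0263%. Among the CTCF sites called in at least 3 of 4 NPC WT libraries, 8.59% were called in no NPC ΔZF1 library. The share with the groups exchanged was 0.207%. The peak ranked 5202nd, 6484th and 3092nd by fold in the NPC WT lists, while the NPC ΔZF1 lists held 13639, 10242, 5755 and 33452 peaks.

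Smc3 was called at -11 kb also in NPC ΔZF1, where no CTCF list had a peak. The NPC ΔZF1 lists held 30516 and 34104 peaks for Smc3, but 5755 to 33452 for CTCF. The share of all sites with this pattern was not counted. In NPC ΔZF1 the Smc3 percentiles were 88.5 and 94.2, and in NPC WT 83.5 and 80.4. In ESCs they were 39.8 in WT replicate 1, 57.8 and 38.5 in ΔZF1, and uncalled in WT replicate 2. All 4 NPC values lay above all ESC values, with folds of 9.8 to 17.1 against 5.9 to 8.5. Of Smc3 sites in the rescue libraries, 9.65% were separated in this direction and 0.575% in the other, and of the window the -11 kb and -9.5 kb sites were. In the E14, PodxlpA and Grb10pA NPCs Smc3 was called in all 6 lists, at 4.9 to 83.8. The lowest value, in PodxlpA replicate 2, belonged to a peak with its summit at -10.57 kb, apart from the other Smc3 summits near -11 kb. Rad21 was called in 1 ESC WT library (43.4), 1 NPC WT library (67.4) and 1 NPC ΔZF1 library (57.1).

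**Figure D2:**
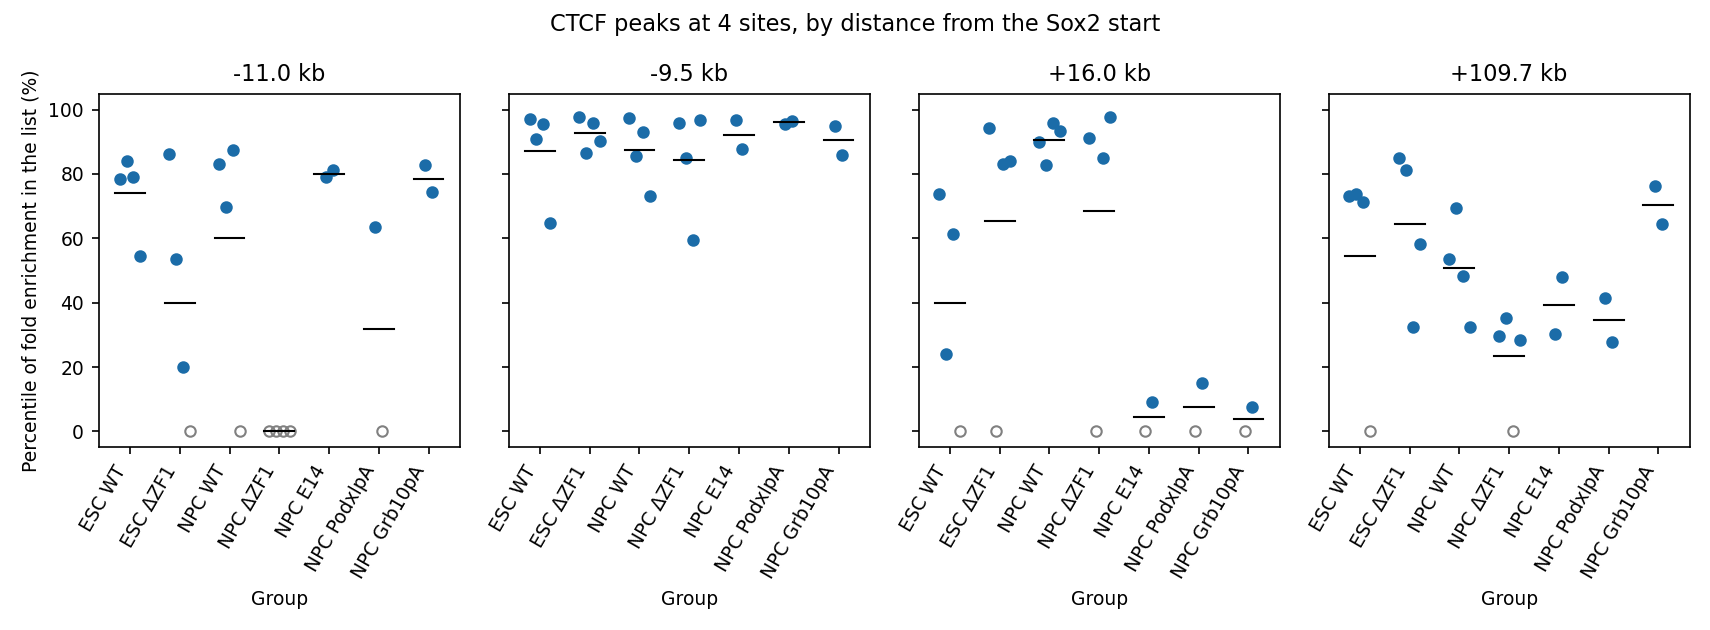
Percentile of CTCF fold enrichment (percent, vertical axis) at 4 sites, named by distance from the Sox2 start, by group. Each point is a library, open circles at 0 are uncalled libraries and lines are means with these at 0. The -9.5 kb site is high in every group, the -11 kb site is uncalled in all 4 NPC ΔZF1 libraries, and the +16 kb site is at most 14.9 in the E14, PodxlpA and Grb10pA libraries.

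The -2.5 kb site (chr3:34647679-34648213), in a Sox2ot intron and inside the SRR1 region as set here (-5 to -2 kb), has the motif without mismatch but was called less widely. CTCF peaks were present in 2 ESC WT libraries (percentiles 71.3 and 56.7), 2 ESC ΔZF1 libraries (78.6 and 12.2), none of the 4 NPC WT libraries and 2 NPC ΔZF1 libraries (36.1 and 40.5). All 6 E14, PodxlpA and Grb10pA libraries had it, from 8.6 to 80.2. Of the CTCF sites called in all 6 of those lists, 1.81% were called in no NPC WT list. The ΔZF1 minus WT difference was -9.31 percentile points in ESCs and 19.1 in NPCs (n = 4 each, exact permutation p = 1 and 0.429).

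Smc3 was called at -2.5 kb in 9 of 14 libraries. The percentiles were 81.5 in ESC WT, 51.4 in ESC ΔZF1 and 63.9 in NPC WT, each in replicate 1 alone, and 76.2 and 90.1 in NPC ΔZF1. E14 (76.7 and 18.6), PodxlpA replicate 1 (76.2) and Grb10pA replicate 1 (89.1) made up the rest. In NPC WT replicate 1, Smc3 was therefore called where no CTCF library of the group had a peak. That Smc3 list held 27798 peaks, and the share of sites with such a pattern was not counted. Rad21 was called once, in ESC WT replicate 2 (26.6).

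At the Sox2 promoter and gene body, calls were few and low. Within 1 kb of the start there was 1 site, over the Sox2 exon (chr3:34650404-34651297), with a CTCF peak in NPC ΔZF1 replicate 4 (19.0) and Smc3 peaks in NPC WT replicate 1 (0.73) and NPC ΔZF1 replicate 2 (21.7). Smc3 peaks at -1.47 kb (2.5 and 9.4, NPC WT replicate 1 and NPC ΔZF1 replicate 2) and -1.01 kb (6.3, NPC WT replicate 2) were of the same kind. No list had a peak in the SRR2 region (2 to 5 kb) or in the region 17 to 20 kb downstream that holds SRR18.

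The +16 kb site (chr3:34666115-34666664, in a Sox2ot intron) was a CTCF site without a called cohesin peak. It was called in 16 of 22 CTCF libraries and in none of the Smc3 or Rad21 libraries. Among CTCF sites called in at least 16 libraries, a limit taken from this site, 4.43% had no Smc3 or Rad21 peak in any library. Percentiles in ESC WT were 73.9, 24.1 and 61.2 with replicate 4 uncalled, and in NPC WT 90.1, 82.7, 95.9 and 93.4. All NPC WT values were above all ESC WT values.

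The mean percentile at +16 kb was 39.8 ± 33.9 in ESC WT and 90.5 ± 5.73 in NPC WT (SD, n = 4 each), a difference of 50.7 points that was higher in NPC in 4 of 4 same-numbered pairs. The exact permutation p was 0.0286, which is the smallest that 4 against 4 libraries can give. Of the 28 comparisons made over 7 sites, 1 reached it. These 7 sites were those called in every library of at least 1 CTCF group. The +16 kb site met this rule through NPC WT alone, the higher group here, so this p is conditional on that entry. With same-numbered libraries paired, the exact sign-flip permutation p was 0.125, the smallest that 4 pairs allow. Without the lists of replicate 4 the difference was 36.5 points (exact permutation p = 0.1, the smallest that 3 against 3 allow), and leaving out uncalled libraries gave 37.4 points (exact permutation p = 0.0571). Within replicates 1 and 4 it was 54.8 points and within replicates 2 and 3 46.7. Of CTCF sites in these libraries, 1.02% were separated in this direction and 0.525% in the other. When limma was fitted with uncalled libraries placed below their list, the effect was 1.70 SD units (SE 0.33, adjusted p = 0.0302), and 2.25% of sites were called. This fit took sites called in all 4 libraries of at least 1 of the 2 groups. The +16 kb site entered through NPC WT, the group where it was high, so this p is not independent of its entry. Where limma was fitted on calls alone, the site entered without ESC WT replicate 4 (1.66, adjusted p = 0.0688) and in replicates 2 and 3 alone (1.75, adjusted p = 0.746), and did not pass in either.

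In the ΔZF1 libraries the cell types overlapped at +16 kb. ESC ΔZF1 percentiles were 94.3, 83.0 and 84.1 with replicate 2 uncalled, and NPC ΔZF1 percentiles were 91.3, 85.0 and 97.6, again with replicate 2 uncalled. The NPC minus ESC difference was 3.10 points (n = 4 each, exact permutation p = 0.714). The difference between the ΔZF1 effects in NPCs and ESCs was -47.6 points (exact permutation p = 0.173), so a dependence on the rescue protein was not detectable.

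The non-rescue NPC lines lay below NPC WT at +16 kb but overlapped NPC ΔZF1, whose replicate 2 was also uncalled. Replicate 1 of E14, PodxlpA and Grb10pA was uncalled, and replicate 2 lay at 9.2, 14.9 and 7.6. Every NPC WT value was above all 6 of these, a separation met by 2.72% of CTCF sites in this direction and 1.46% in the other. These 6 libraries had 0.219 to 0.647 fragments per bp, in part below and in part like replicates 2 and 3 of the rescue lines, where the NPC WT values were 82.7 and 95.9. Lines, treatment and library series differ together between these sets and cannot be told apart.

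The -74 kb site (chr3:34576101-34576631, Sox2ot intron) was the other CTCF site with many calls and no called cohesin peak. CTCF was called in 14 of 22 libraries, and 5.4% of the CTCF sites with at least 14 calls had no Smc3 or Rad21 peak in any library. The percentiles were 79.4, 15.0 and 60.3 in ESC WT, 77.8, 24.0 and 39.0 in ESC ΔZF1, 55.6 and 11.1 in NPC WT and 29.3 in the only NPC ΔZF1 library with a call. The non-rescue lines had 5 calls, from 2.9 to 56.7. The NPC minus ESC difference was -22.0 points in WT and -27.9 in ΔZF1 (n = 4 each, exact permutation p = 0.286 and 0.257).

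The -49 kb site (chr3:34601199-34601570) lies in introns of Sox2ot and of Gm42205, a noncoding gene on the opposite strand. CTCF was called in ESC WT replicates 1 and 2 (37.5 and 32.0), NPC WT replicate 3 (20.0) and 4 of the 6 non-rescue NPC libraries (9.0 to 41.9), and in none of the 8 ΔZF1 libraries. Of CTCF sites in the rescue libraries, 1.94% had at least 3 WT calls and no ΔZF1 call, with the limit taken from this site. Among those with at least 3 WT calls, 4.28% had no ΔZF1 call. The ΔZF1 minus WT difference was -17.4 points in ESCs (n = 4 each, exact permutation p = 0.429), and in NPCs, with a call in 1 WT library, the exact permutation p was 1. Smc3 was called in 9 of 14 libraries, among them all 4 lists of ΔZF1 cells (19.7 and 9.4 in ESCs, 33.7 and 58.8 in NPCs). How many sites had Smc3 but no CTCF calls in ΔZF1 cells was not counted.

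The SCR held the most widely shared site of the window. In the stretch from 100 to 120 kb there were 2 sites, and the one at +110 kb (chr3:34759781-34760514, intergenic) was called in 20 of 22 CTCF, 14 of 14 Smc3 and 2 of 8 Rad21 libraries. Of the Smc3 sites of the series, 6.38% were called in all 14 lists, and of the CTCF sites 7.04% in at least 20 lists. The other site, at the end of this stretch nearer to Sox2, had low CTCF peaks in ESC ΔZF1 replicate 1 (11.1) and NPC ΔZF1 replicate 4 (9.6).

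CTCF percentiles at +110 kb were 73.2, 73.9 and 71.3 in ESC WT with replicate 4 uncalled, and 85.0, 81.3, 32.5 and 58.3 in ESC ΔZF1. In NPC WT they were 53.5, 69.3, 48.2 and 32.5, and in NPC ΔZF1 29.7, 35.2 and 28.6 with replicate 3 uncalled. The NPC ΔZF1 libraries were the lowest group, with a median of 29.7 over the called libraries beside 50.8 in NPC WT. Each NPC ΔZF1 library with a call was below the NPC WT library of the same number. The uncalled replicate 3 had the shortest CTCF list, with 5755 peaks. Replicate 2 of NPC ΔZF1, however, was above replicate 4 of NPC WT.

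The NPC ΔZF1 mean at +110 kb was 23.4 ± 15.9 and the NPC WT mean 50.9 ± 15.2, a difference of -27.5 points (SD, n = 4 each, exact permutation p = 0.0571). In ESCs the ΔZF1 mean was 64.3 ± 24.3 and the WT mean 54.6 ± 36.4, a difference of 9.71 points (exact permutation p = 0.714). Without the lists of replicate 4 these differences were -35.3 and -6.49 points (exact permutation p = 0.1 and 1), so that in ESCs the sign turned. From ESCs to NPCs the change was -3.72 points in WT and -40.9 in ΔZF1 (n = 4 each, exact permutation p = 0.914 and 0.0571). The ΔZF1 effects in the 2 cell types differed by -37.2 points, which the 16 libraries did not separate from 0 (exact permutation p = 0.151). The non-rescue NPC lines spread from 27.6 in PodxlpA replicate 2 to 76.2 in Grb10pA replicate 1, with E14 at 30.2 and 48.1. This range covers the NPC WT values and also the called NPC ΔZF1 values.

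**Figure D3:**
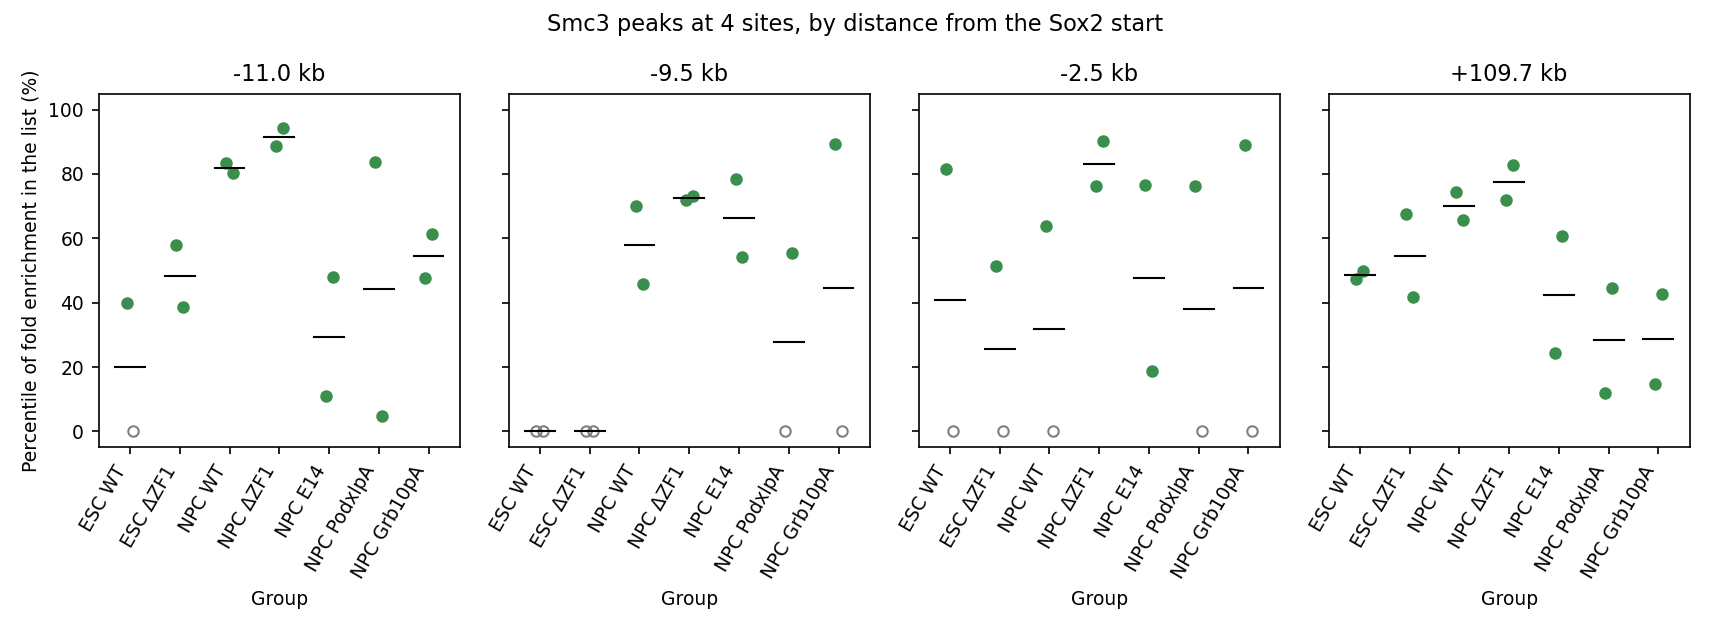
Percentile of Smc3 fold enrichment (percent, vertical axis) at 4 sites, named by distance from the Sox2 start, by group, with 2 libraries per group. Open circles at 0 are uncalled libraries and lines are means with these at 0. The -9.5 kb site is uncalled in the 4 ESC libraries, and the +110 kb site is called in all 14 libraries.

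Smc3 at +110 kb was at 47.3 and 49.9 in ESC WT, 67.4 and 41.9 in ESC ΔZF1, 74.4 and 65.6 in NPC WT and 72.0 and 82.7 in NPC ΔZF1. In 3 of 4 NPC libraries the value lay above all ESC values. WT and ΔZF1 overlapped in both cell types, and with 2 libraries per group no permutation test can go below 0.333. E14 (24.4 and 60.6), PodxlpA (11.9 and 44.6) and Grb10pA (14.8 and 42.6) were lower than the rescue NPCs in every library. The share of all Smc3 sites separated in this way was not counted, so it is not known whether this is particular to the site. These lists come from 0.276 to 0.547 fragments per bp, against 2.05 to 3.51 in the rescue lines, and the part of depth in this difference was not tested.

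Rad21 was called at +110 kb in both ESC WT libraries (41.9 and 25.3) and in neither ESC ΔZF1 library nor any NPC library. Among the Rad21 sites called in both ESC WT libraries, 46.9% were uncalled in both ESC ΔZF1 libraries and 12.9% in both NPC WT libraries. The SCR peak ranked 2056th and 7781st by fold in the ESC WT lists, and the ESC ΔZF1 lists held 1306 and 2347 peaks in all. The coverage of those ΔZF1 libraries was 2.44 and 2.77 fragments per bp, within the range of the ESC WT libraries (2.17 and 3.72). The first rank lies within the length of one of these ΔZF1 lists, and the second lies beyond both.

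The +122 kb site (chr3:34772131-34772309) overlaps an exon of the noncoding gene Gm38509 and was seen only with Smc3. It was called in NPC WT replicate 1 (42.4) and both NPC ΔZF1 libraries (19.7 and 51.2), which are the 3 longest Smc3 lists. Of the 44604 Smc3 sites of the series, 85.2% had a CTCF peak in at least 1 library, and of the 11 in the window 7 did. The other 15 sites of the window were called in 1 to 5 libraries each. Their 33 peaks had a median percentile of 11.1 (0.73 to 54.8), 10 were CTCF sites alone, 3 Smc3 sites alone and 2 had both. The deep list of ESC ΔZF1 replicate 1 contributed 9 of the 33 peaks and ESC WT replicate 1 another 5.

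Over the whole window, CTCF peaks were counted per 10000 peaks of each list, since the lists differ in length. ESC WT had 2.79, 2.73, 3.02 and 1.79, and ESC ΔZF1 had 3.27, 2.93, 4.44 and 2.44. NPC WT had 1.96, 2.34, 2.41 and 2.66, and NPC ΔZF1 had 2.20, 3.91, 5.21 and 2.09. The groups overlapped.

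The ESC ΔZF1 mean was 3.27 ± 0.851 and the ESC WT mean 2.58 ± 0.544 (SD, n = 4 each, exact permutation p = 0.286), higher in 4 of 4 same-numbered pairs. Paired by replicate number, the exact sign-flip permutation p was 0.125 in ESCs, the smallest that 4 pairs allow, and 0.375 in NPCs. In NPCs the ΔZF1 mean was 3.35 ± 1.49 and the WT mean 2.34 ± 0.287 (exact permutation p = 0.371), but with the same number of top peaks taken from every list the difference turned to -0.869. The ΔZF1 minus WT difference was 0.685 in ESCs and 1.009 in NPCs. Without ESC ΔZF1 replicate 3 the former was 0.295 and without ESC WT replicate 4 0.42, and without NPC ΔZF1 replicate 3 the latter was 0.389. Without the lists of replicate 4 they were 0.696 and 1.53 (exact permutation p = 0.2 and 0.3). The NPC minus ESC difference was -0.24 in WT and 0.087 in ΔZF1 (exact permutation p = 0.457 and 0.971), and the interaction of rescue protein and cell type was 0.32 (exact permutation p = 0.767). The NPC minus ESC difference in WT was -0.092 without ESC WT replicate 3, -0.112 without NPC WT replicate 1 and -0.503 without ESC WT replicate 4 (exact permutation p = 0.8, 0.743 and 0.0571). It was -0.607 without all lists of replicate 4 (exact permutation p = 0.1). No CTCF site of the window was called in all 4 libraries of one group and none of the other in any of the 4 comparisons. Across the series such switches were rare too. In ESCs 0.0018% of sites were called only in ΔZF1 and 0.0467% only in WT, and in NPCs 0% and 0.452%. In WT cells 0.0739% were called only in NPCs and 0.0622% only in ESCs, and in ΔZF1 cells 0% and 0.232%.

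**Figure D4:**
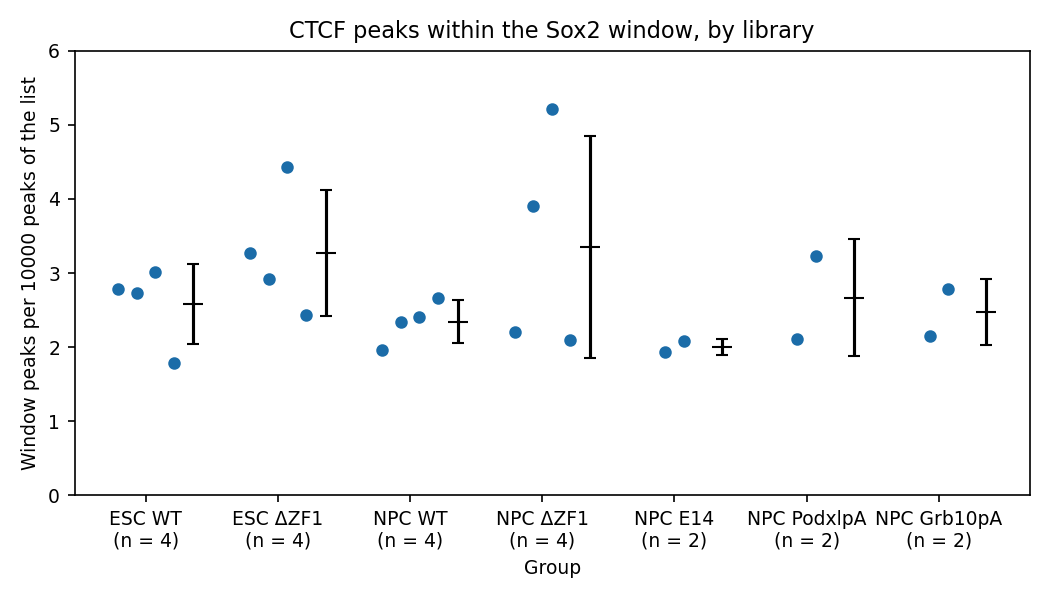
CTCF peaks of the Sox2 window per 10000 peaks of the list (vertical axis), by group, with a point per library and the mean with SD beside it. The groups overlap, and NPC ΔZF1 spreads from 2.09 to 5.21.

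Set beside other regions, the Sox2 window was moderately rich in sites. Its 19 CTCF sites exceeded those of 81.3% of the 6813 tiles of 400 kb that cover the genome, its 11 Smc3 sites those of 77.2% and its 3 Rad21 sites those of 69.2%. Windows of 200 kb to each side of 15 pluripotency genes held a median of 33 CTCF sites (16 to 64), and those of 16 neural progenitor genes a median of 14 (2 to 46), with Sox2 between these medians. The windows whose CTCF peaks per 10000 followed those of Sox2 most closely over the 22 CTCF libraries were Prdm14 (Spearman's rho 0.53), a pluripotency regulator, Pou5f1 (0.49), which encodes Oct4, and Sall4 (0.34). At the other end of the 31 windows stood Utf1, also on the pluripotency list, with a rho of -0.52. All values share the list length as divisor, and these correlations are descriptions only.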

How the data were processed

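Paired-end ChIP-seq reads were mapped by the authors with Bowtie2 (mm10) and filtered for a mapping quality of at least 30 with SAMtools. Picard served to discard duplicates and bedtools to discard the blacklist, and MACS2 was run on every sample at a q-value of 0.01. Tool versions and the pairing of inputs are not given in the sources used here. Of 54 samples, 44 had a deposited peak list. The 10 inputs were not analysed here. Each deposited list holds a display score, a fold enrichment (a ratio of pileup to local background), the −log10 of the p-value and q-value, and the summit offset, all from the authors' caller.

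Peaks overlapping by at least 1 bp were merged over all libraries. Fold was ranked within a list, since raw folds depend on depth, which the lists do not state. Fold and −log10 p together returned a whole number of fragments at the summit for 99.7% to 100% of peaks with a −log10 p up to 60 (tolerance 0.0005), and the lowest background rate served as relative coverage. Means were compared by two-sided exact permutation of libraries. The number of comparisons is given, and p-values were not adjusted over the chosen sites. limma 3.58.1 (R 4.3.3) was run over all CTCF sites called in every library compared. The p-values were adjusted by Benjamini-Hochberg and called at 0.05, and the script was tested on simulated data. Python 3.11.15 served for the rest.

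The Sox2 window, the gene lists and the rule for naming sites and genes were chosen with earlier results of these data known. Sites called in every library of a group, or in at least 50% of an antibody's libraries, were described singly. The study's count-based test was not repeated. The study calls its ChIP-seq replicates biological, but the labels do not say that they were separate cultures, so p-values measure the spread between these libraries, which may be technical. Same-numbered libraries deviated together (correlations of 0.218 to 0.587 over CTCF sites), although replicate 1 correlated more with another number in NPC ΔZF1 against WT (0.370 beside 0.313) and in ΔZF1 NPC against ESC (0.390 beside 0.354). By a limit of 0.1 for every pair, the numbers were taken as pairs, from the data and not the labels, and paired fits were run as alternatives.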

Additional observations from a re-analysis of the deposited data

How the results depend on the processing

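Differences are given as in the report, and the cause of each change was not tested unless stated. In CTCF peaks of the window per 10000, ΔZF1 minus WT in NPCs turned to -0.869 with equal peak numbers, to -1 peak unscaled and to -0.165 in replicates 1 and 4 alone. NPC minus ESC in WT turned to 0.0216 in replicates 1 and 4 alone. In ΔZF1 it turned to -3.5 peaks unscaled and -0.705 in replicates 1 and 4 alone, and lay between -0.533 and 0.507 with 1 library left out. The interaction turned to -2 peaks unscaled. None of these passed 0.05.

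Of switched sites in the window, 1 appeared for ΔZF1 against WT in NPCs in replicates 2 and 3 alone, and 1 for ΔZF1 NPC against ESC in each of these sets, replicates 1 and 4 alone and replicates 2 and 3 alone, with 0 to 1 when a library was left out, as fewer libraries make the rule easier to meet. limma calls over all sites for ΔZF1 against WT in ESCs were 14 on quantile-normalized log2 folds, 1 on ranks of −log10 p, 3 with the replicate block, 9 with uncalled libraries below the list, 0 in each of these sets and 0 to 15 with a library left out. In NPCs they were 2 and 1 for quantile-normalized folds and uncalled libraries. For NPC against ESC in WT they were 160 with the replicate block, 149, 4 and 253 in the same order as before, 0 in each of these sets and 0 to 79 with a library left out, and with uncalled libraries below the list 1 window site, the +16 kb site, was called. At most 1 mismatch left a motif in 5 CTCF sites of the window.

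At the +16 kb site, the NPC minus ESC difference in WT kept its direction in all alternatives. Of the permutation tests, those in the main setting and by −log10 p passed 0.05, and limma passed with uncalled libraries below the list (adjusted p = 0.0302). In each case the site was admitted through its calls in all NPC WT libraries, the higher group. With a library left out the difference was 37.4 to 62.1 points, where the smallest possible exact p is 0.0571. The replicate block changed no other call at a site of the window.

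The remaining reversals concern site differences that did not pass 0.05 in any setting. At -74 kb, ΔZF1 minus WT was 18.7 points in ESCs (replicates 1 and 4 alone; -17.7 to 10.1 with a library left out) and -16.7 to 3.61 in NPCs, and NPC minus ESC in ΔZF1 was 2.65 (replicates 2 and 3). At -11 kb, NPC minus ESC in WT was 6.08 without uncalled libraries and -23.1 to 6.08 with a library left out. At -9.5 kb, ΔZF1 minus WT was -1.87 (replicates 2 and 3), -0.976 (without replicate 4) and -1.74 to 9.01 in ESCs, and 10.98 (replicates 1 and 4) and -7.78 to 5.15 in NPCs, where the value without replicate 4, -11.9, kept the direction of the -3.06 in the report. NPC minus ESC there was -1.53 by −log10 p, -3.80 (replicates 2 and 3), -2.40 (without replicate 4) and -7.12 to 5.03 in WT, and 2.15 (replicates 1 and 4) in ΔZF1. At -2.5 kb, ΔZF1 minus WT in ESCs was 3.66 (replicates 1 and 4) and -27.9 to 3.78, and NPC minus ESC in ΔZF1 was 11.96 (replicates 2 and 3) and -11.1 to 15.1, while -18.2 without replicate 4 kept the direction of the -3.55 over all lists. At +16 kb, ΔZF1 minus WT was -1.13 in ESCs (replicates 2 and 3), and in NPCs 0.786 without uncalled libraries, 2.71 (replicates 1 and 4) and -31.8 to 0.786. NPC minus ESC in ΔZF1 was -0.355 without replicate 4 and -18.7 to 25.9. At +110 kb, ΔZF1 minus WT in ESCs was -8.49 without uncalled libraries, -15.7 (replicates 2 and 3), -6.49 (without replicate 4) and -8.49 to 20.3, and NPC minus ESC in WT was 6.39 (replicates 1 and 4) and -21.9 to 2.71. Leaving out all lists of replicate 4 was chosen after seeing the data.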
